A study of Homo sapiens with 12 samples.

Results

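The comparison described here is that of Jurkat cells cultured with chidamide against Jurkat cells cultured without it. Jurkat is an established human line of T-cell acute lymphoblastic leukaemia (T-ALL), a cancer of immature T cells. The members are all genes whose FPKM (mapped fragments per kilobase of transcript, scaled to the size of the library, a level per length of transcript) was at least 1 in 3 or more of the 6 Jurkat libraries. Of 25146 genes in the deposited table, 12467 met this rule, 6390 were listed at 0 in all 6 libraries and 6289 were above 0 but below the rule. The study held 12 RNA sequencing libraries in 4 groups of 3, from Jurkat and from the T-ALL line Molt-4. The 3 untreated Jurkat libraries received no chidamide, and the 3 treated ones received 2 µM. The libraries carry the letter J, read here as Jurkat. The treatment protocol gives 48 h, while the labels of treated replicates 1, 2 and 3 carry 48, 49 and 50 h. Whether these hours are real times is not known, and they cannot be told apart from the replicate number. No genetic change separates the groups. Jurkat is a single line, and the labels do not state whether the 3 libraries of a group are separate cultures. The p-values therefore cover only the spread among these libraries, which may be technical.

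Histone deacetylases remove acetyl groups from lysines of histone tails and of other proteins, mostly as subunits of corepressor complexes bound at promoters and enhancers. Chidamide, also named tucidinostat, belongs to the benzamide inhibitors and acts on HDAC1, HDAC2, HDAC3 and HDAC10. Inhibitors of this kind are known to raise histone acetylation, to raise the cyclin-dependent kinase inhibitor gene CDKN1A in many cell types and to slow the growth of lymphoid cells. Bulk RNA cannot tell fewer cells of a type from less RNA per cell.

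The defining markers of T cells were high in all 6 libraries. CD3D, a chain of the T-cell receptor complex, lay at 801.51, 819.14 and 787.88 FPKM untreated and at 539.12, 475.03 and 503.15 FPKM treated. The kinase gene LCK lay between 484.71 and 508.83 FPKM untreated and between 323.12 and 333.03 FPKM treated. EPCAM of epithelium and DCN and LUM of fibroblasts were listed at 0 in each of the 6 libraries. The B-cell marker MS4A1 was listed at 0 untreated and between 0.22 and 0.27 FPKM treated. The myeloid marker CD14 reached 1.13 FPKM in 1 treated library, and LYZ at most 0.33 FPKM in any.

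The FPKM values of a library summed to 698435 at the lowest and 759619 at the highest, and the number of reads behind the values is unknown. Between 11643 and 11866 genes reached an FPKM of 1 in the untreated libraries and between 12567 and 12606 in the treated ones. Untreated replicate 3 differed from untreated replicates 1 and 2, with log2 ratios whose SD over genes was 0.337 and 0.344. Pairs of libraries of the same group that did not include it had an SD between 0.224 and 0.244. In that library 398 genes were at least 1.5-fold above both other untreated libraries and 96 at least 1.5-fold below, which together is 3.96% of the genes tested. In each of the other 5 libraries that share was between 0.586% and 0.93%. Values without it are given below beside several of the lists and genes in which it stood apart.

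Changes are differences of mean log2(FPKM + 1), chidamide minus untreated, with their standard error (SE), and understate the change of low genes. Each gene was tested with limma across the 6 libraries, and a gene is called where its Benjamini-Hochberg adjusted p was under 0.05. Of the genes tested, 55.4% were called. Of these 3705 were higher with chidamide (29.7% of those tested) and 3206 lower (25.7%), while 5556 were not called. Changes of at least 2-fold were more often rises, with 1138 genes higher (9.13%) and 344 lower (2.76%). At least 8-fold, 41 genes rose and 10 fell. Many called changes were small: 1519 of the rises and 1879 of the falls were under 1.5-fold. The 3 treated libraries all lay above the 3 untreated ones for 4130 genes (33.1%) and all below for 3743 (30.0%). Without untreated replicate 3 the calls numbered 4215 higher and 3560 lower. With quantile normalization, which gives all libraries the same distribution of values, they numbered 3327 higher and 3610 lower, and with equal totals after leaving out 7SL RNA they numbered 4247 higher and 2643 lower.

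The direction of the calls differed with the level of the gene. Among 2330 genes with a mean of 1 to 5 FPKM over the 6 libraries, 44.0% were called higher and 8.93% lower, and the median change was 0.35. Among 1117 genes over 100 FPKM, 20.6% were called higher and 43.4% lower, with a median change of -0.15. The rule bears on low genes. Of those tested, 587 were under 1 FPKM in all 3 untreated libraries and entered through the treated ones, and 40 entered through the untreated ones. Such genes had to differ in order to be tested, so their changes are descriptions, and list counts are also given without them where a list holds several. Those named below include NCAM1, TMEM59L, TOX2, ZBTB7B, SEMA6B, L1CAM, RNF43, SMAD7, HOXD8 and GRB10. Among the 11840 genes that reached 1 FPKM in both groups, 3123 were called higher (26.4%) and 3171 lower (26.8%), with a median change of -0.0027. Genes at the edge of the rule were low in both groups or in 1 group. BCAM, at 0.09, 0.02 and 0 FPKM untreated and 1.38, 1 and 1.26 FPKM treated, was just inside. ALS2CL, at 0.07, 0.18 and 0.25 FPKM untreated and 0.99, 1.03 and 1.46 FPKM treated, was just outside.

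**Figure D1:**
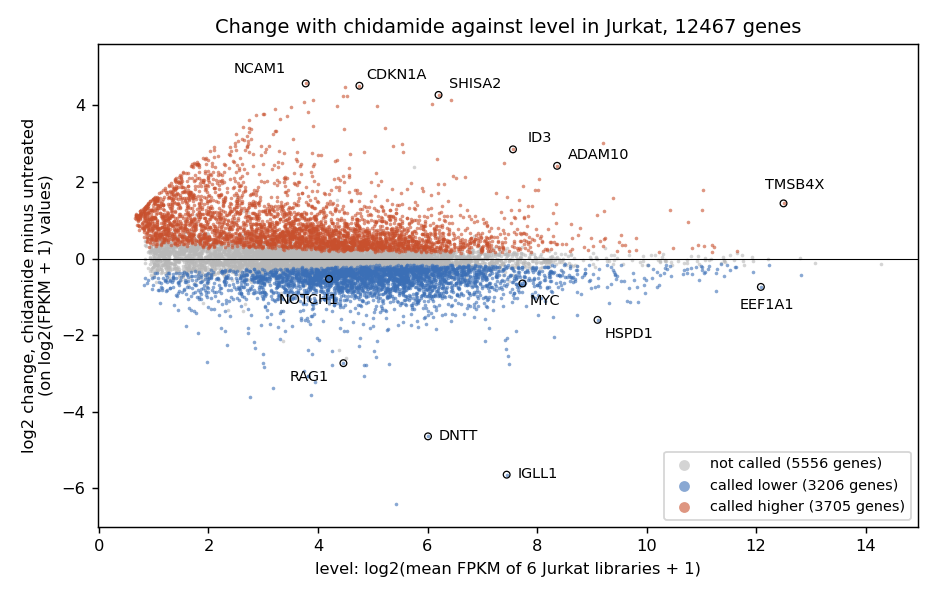
The log2 change with chidamide in Jurkat (vertical axis, on log2(FPKM + 1) values) is plotted against the level (horizontal axis, log2 of the mean FPKM of the 6 libraries plus 1), 1 point per gene, coloured by call. The 3705 genes called higher make up the largest share of points at low levels, while falls beyond -4 are few and include IGLL1 and DNTT.

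Of the 4 deacetylase genes whose products chidamide inhibits, HDAC3 was called. It lay at 51.12, 51.4 and 48.56 FPKM untreated and at 69.86, 67.42 and 69.17 FPKM treated, and rose by 0.44 ± 0.059 (adjusted p = 4.68e-04). HDAC1 (277.32 to 332.15 FPKM untreated, 309.98 to 322.17 treated), HDAC2 (209.77 to 214.35 and 221.07 to 229.46) and HDAC10 (43.99 to 58.76 and 43.18 to 46.92) were not called (limma adjusted p = 0.449, 0.139 and 0.338). Quantile normalization led to calls of a rise for HDAC1 and HDAC2 (limma adjusted p = 0.00535 and 0.00757, with ranges over all alternatives of 0.00535 to 0.937 and 0.00757 to 0.321), and HDAC2 also with equal totals. Genes of other parts of the chromatin machinery moved in both directions. Of 38 subunits of the complexes around HDAC1, HDAC2 and HDAC3, 11 rose and 8 fell, a mix close to that of all genes. Over all genes 29.7% were called higher and 25.7% lower. RCOR2, a CoREST corepressor subunit, rose from between 5.41 and 7.31 to between 20.9 and 24.9 FPKM (1.77 ± 0.13), and CHD3, the helicase of a NuRD complex, fell from between 164.22 and 174.09 to between 64.83 and 69.65 FPKM (-1.31 ± 0.058). Among 27 SWI/SNF remodelling subunits 7 rose and 7 fell. DPF3 rose by 2.25 ± 0.13 and SMARCD3 by 1.38 ± 0.14, while BCL7A fell from between 48.88 and 58.5 to between 19.9 and 20.61 FPKM (-1.36 ± 0.082). Of 41 histone methyltransferases and demethylases 7 rose and 16 fell. JARID2, a subunit of Polycomb complex PRC2, rose from 23.02, 24.14 and 28.03 to 92.27, 90.92 and 91.74 FPKM (1.83 ± 0.082), and the H3K36 methyltransferase gene NSD1 fell by 1.05 on the log2 scale. The median changes of the corepressor and SWI/SNF lists, 0.017 and -0.085, turned sign under another scaling.

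CDKN1A, which encodes the cell cycle inhibitor p21, lay at 1.67, 1.08 and 1.13 FPKM untreated and at 52, 50.08 and 50.19 FPKM treated, a rise of 4.51 ± 0.12 (adjusted p = 4.04e-07). The largest rise on the log2 scale was that of NCAM1, the neural cell adhesion molecule CD56 (4.57 ± 0.13). It was at 0, 0.15 and 0.17 FPKM untreated and at 28.32, 25.08 and 22.44 FPKM treated. NCAM1 entered the test through the treated libraries, so its change is a description. In CDKN1A and NCAM1 the groups lay far apart, and the treated libraries differed little among themselves. The kinase gene SGK1 went from 1.05, 0.74 and 1.01 to 40.25, 41.19 and 45.17 FPKM (4.48 ± 0.11). SHISA2, a regulator of WNT and FGF receptor maturation, went from 5.11, 5.79 and 8.09 to 142.62, 136.74 and 137.08 FPKM (4.27 ± 0.14). IER3, an early response gene, went from 8.55, 7.21 and 8.6 to 154.05, 152.15 and 178.18 FPKM (4.15 ± 0.095). Each was low in the 3 untreated libraries and high in the 3 treated ones. Other genes among the 12 largest rises were ENC1, COL1A1 (a fibrillar collagen chain), CYP4F12, TMEM59L, NRGN (the neuronal calmodulin-binding protein neurogranin), ID2 and the galectin gene LGALS1. Their changes lay between 3.99 and 4.24, and their treated levels between 23.05 and 131.92 FPKM. LGALS1 varied most among untreated libraries, at 5.78, 2.08 and 2.08 FPKM.

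The largest falls took high or moderate genes close to 0. IGLL1, a chain of the surrogate light chain of precursor lymphocytes, lay at 346.11, 360.94 and 314.87 FPKM untreated and at 4.82, 5.72 and 7.2 FPKM treated (-5.64 ± 0.12, adjusted p = 1.82e-07). DNTT, the terminal deoxynucleotidyl transferase that adds bases at antigen receptor junctions, lay at 102.58, 98.2 and 167.95 FPKM untreated and at 4.33, 4.27 and 3.02 FPKM treated (-4.64 ± 0.21, adjusted p = 3.38e-06). Both genes are marks of immature lymphocytes. TNFRSF4, the costimulatory receptor OX40, went from 20.59, 16.34 and 9.72 to 0.5, 0.83 and 0.32 FPKM (-3.37 ± 0.25). TERT, the catalytic subunit of telomerase, went from 13.39, 14.79 and 11.37 to 1.41, 0.6 and 1.04 FPKM (-2.83 ± 0.17). SH3TC1 went from between 40.29 and 57.49 to between 4.54 and 6.07 FPKM (-3.07 ± 0.15). Several of the largest falls were small nucleolar and Cajal body RNAs, which act in the modification or processing of other RNAs. SCARNA16 was at 89.97, 80.86 and 81.35 FPKM untreated and SNORD17 at 15.52, 9.55 and 9.72, and both were listed at 0 in all 3 treated libraries. SCARNA9, SNORD3B-1 and SNORD3B-2 also fell, with changes of -2.93, -3.22 and -3.55. Such RNAs are short and several have near-identical copies, so their FPKM is uncertain. The same holds for CXorf49 and CXorf49B, whose values were identical in all 6 libraries (-3.06 ± 0.25).

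**Figure D2:**
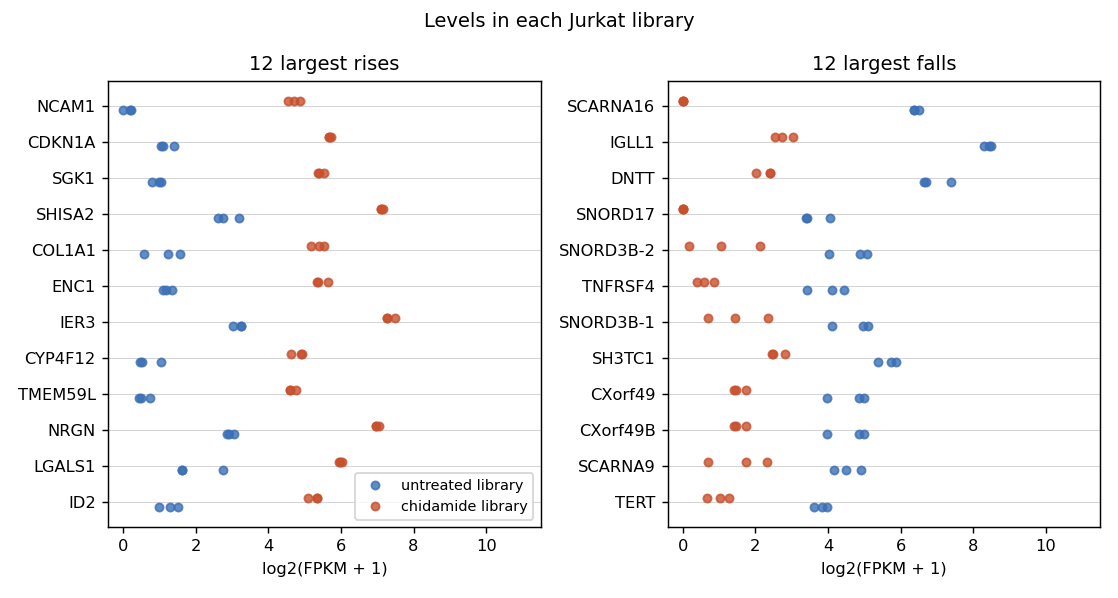
The 12 largest rises and 12 largest falls are shown by library, with log2(FPKM + 1) on the horizontal axis and 1 point per library. In the 24 genes the 3 treated and 3 untreated libraries do not overlap, as the choice of genes required, and SCARNA16 and SNORD17 sit at 0 in all 3 treated libraries.

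To show what lies in front of genes at both ends of the response, the 250 bases before the RefSeq start site (GRCh38.p14) are given for 5 genes. These are CDKN1A, the first 2 of the other large rises with a single entry and the first 2 large falls with a single entry. Among the rises and falls, larger changes with several entries or none were passed over. Capitals mark GGGCGG or CCGCCC, the letters of the GC box that Sp1-type factors are known to bind, searched on both strands, and TATAAA, searched on the plus strand. Matches may overlap. They are given 5′ to 3′ on the gene's strand.
CDKN1A: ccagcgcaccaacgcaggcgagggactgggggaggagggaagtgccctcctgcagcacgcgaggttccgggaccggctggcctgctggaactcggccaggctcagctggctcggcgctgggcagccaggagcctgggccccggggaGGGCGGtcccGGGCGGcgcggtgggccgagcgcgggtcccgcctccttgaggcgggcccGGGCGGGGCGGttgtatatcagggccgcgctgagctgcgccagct
SHISA2: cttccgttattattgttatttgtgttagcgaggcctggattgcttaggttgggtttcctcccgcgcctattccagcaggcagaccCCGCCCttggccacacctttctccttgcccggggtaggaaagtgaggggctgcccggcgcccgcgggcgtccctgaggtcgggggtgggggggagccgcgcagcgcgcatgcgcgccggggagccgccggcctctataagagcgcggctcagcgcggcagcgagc
TMEM59L: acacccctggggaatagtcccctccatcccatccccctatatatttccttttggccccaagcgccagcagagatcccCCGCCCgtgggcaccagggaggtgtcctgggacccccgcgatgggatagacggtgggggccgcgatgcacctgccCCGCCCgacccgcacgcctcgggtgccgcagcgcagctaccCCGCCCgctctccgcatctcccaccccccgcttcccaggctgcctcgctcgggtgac
IGLL1: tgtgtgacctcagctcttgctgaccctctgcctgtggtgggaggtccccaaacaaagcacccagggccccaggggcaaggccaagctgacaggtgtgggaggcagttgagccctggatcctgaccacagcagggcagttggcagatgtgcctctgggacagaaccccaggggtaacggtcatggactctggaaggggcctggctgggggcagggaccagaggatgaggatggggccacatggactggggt
DNTT: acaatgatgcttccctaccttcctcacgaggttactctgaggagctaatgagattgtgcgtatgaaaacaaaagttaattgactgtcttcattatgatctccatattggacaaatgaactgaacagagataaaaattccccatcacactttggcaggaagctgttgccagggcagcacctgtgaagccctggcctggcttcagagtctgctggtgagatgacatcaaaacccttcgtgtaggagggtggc
The CDKN1A sequence (chr6:36678464-36678713, plus strand) holds 4 GC box matches and 76.4% G or C. SHISA2 (chr13:26052017-26052266, minus strand) holds 1, and TMEM59L (chr19:18612620-18612869, plus strand) holds 3. IGLL1 (chr22:23580291-23580540, minus strand) and DNTT (chr10:96304184-96304433, plus strand) hold none. None of the 5 holds TATAAA. Over all genes the shares lay closer together. A single promoter entry was found for 6642 of the genes tested. GC box letters stood in 74.1% of 1849 promoters of genes called higher, in 68.4% of 1776 called lower and in 69.3% of 3017 not called, against 40.9% of all 22114 single-entry promoters in the table. TATAAA stood in 4.22% of promoters of genes called higher, 2.65% of those called lower and 7.72% of all promoters. These shares are descriptions and were not tested.

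Some genes went from silent to expressed. At most 0.1 FPKM in each untreated library and at least 1 FPKM in each treated one was seen for 94 genes, of which 26 were listed at 0 in all 3 untreated libraries and 7 had a treated mean of at least 5 FPKM. The opposite pattern was seen for 3 genes, SCARNA16, SNORD17 and PTCRA. LAIR2, a soluble collagen-binding receptor of lymphocytes, was listed at 0 in the 3 untreated libraries and at 11.73, 16 and 10.19 FPKM in the treated ones. MEIS3, a homeodomain partner of HOX proteins, went from 0, 0.03 and 0 to 11.31, 10.61 and 12.16 FPKM, and SCG2, the secretory granule protein secretogranin II, from 0.05, 0.04 and 0.07 to 10.45, 10.45 and 10.18 FPKM. These genes were at or near 0 in each untreated library and close to each other in the treated ones. DPYSL5, ARHGAP29, ZCCHC12 and PPP1R14C reached between 4.94 and 7.01 FPKM in the treated libraries. HLA-DRA, the alpha chain of an MHC class II molecule, reached 4.93, 3.88 and 5.83 FPKM. The genes were selected by these values, so no test is attached.

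In FPKM, 3 of the 5 largest rises were in genes of actin and its partners. TMSB4X, a thymosin that binds actin monomers, lay at 2943.98, 3050.9 and 3364.23 FPKM untreated and at 8286.28, 8314.45 and 8803.58 FPKM treated (1.44 ± 0.064). TMSB10, its relative, rose from between 872.3 and 1028.72 to between 3169.19 and 3295.73 FPKM (1.80 ± 0.07), and ACTG1, cytoplasmic gamma actin, from between 1185.74 and 1238.67 to between 2823.27 and 3017.32 FPKM (1.27 ± 0.049). B2M, the shared chain of MHC class I molecules and a common reference gene, rose from between 1157.9 and 1194.73 to between 2215.41 and 2333.38 FPKM (0.95 ± 0.047). MIR4738, a miRNA hairpin entry, also stood among the 5 largest, but its value is uncertain, since reads of a longer overlapping transcript could be counted there. The largest falls in FPKM included EEF1A1, the translation elongation factor, from 5136.52, 5235.17 and 5978.65 to 3228.83, 3267.62 and 3251.77 FPKM (-0.74 ± 0.066), the ribosomal protein genes RPS23 (-0.84 ± 0.048) and RPL35 (-0.36 ± 0.061), the peptidyl-prolyl isomerase gene PPIA (-0.45 ± 0.055) and LOC100288910. Such abundant genes with processed copies in the genome can lose or gain reads to those copies. Of 20 commonly used reference genes 5 rose and 8 fell (median change -0.15), among them CYC1 of the respiratory chain, from between 174.57 and 199.02 to between 89.25 and 93.67 FPKM, HPRT1 (-0.72 ± 0.11) and GUSB (-0.62 ± 0.082).

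In 4 lists of protein synthesis genes, falls outnumbered rises. Of 48 ribosome biogenesis genes tested none rose and 36 fell, with a median change of -0.60, against 29.7% higher, 25.7% lower and a median of 0.024 over all genes tested. LYAR, a nucleolar growth regulator, went from 94.45, 102.01 and 68.9 to 35.63, 34.58 and 35.28 FPKM (-1.29 ± 0.13). NOB1, the endonuclease that matures 18S ribosomal RNA, went from 77.16, 77.86 and 78.76 to 34.91, 34.95 and 32.26 FPKM (-1.17 ± 0.063). In both genes the treated libraries all lay below the untreated ones. TSR1 and NOP14, factors of small subunit assembly, fell by 1.12 and 1.01 on the log2 scale. All 76 mitochondrial ribosomal protein genes listed were tested, and 2 rose and 50 fell (median -0.44), with MRPS2, MRPL12 and MRPS34 falling by 0.95, 0.94 and 0.88. Among 21 cytosolic aminoacyl-tRNA synthetases, which load tRNAs with amino acids, none rose and 17 fell (median -0.71). YARS, for tyrosine, went from 115.06, 120.42 and 168.71 to 57.26, 58.33 and 57.8 FPKM (-1.19 ± 0.13). AARS, for alanine, went from 89.67, 97.9 and 178.19 to 49.44, 47.55 and 49.4 FPKM (-1.23 ± 0.23). Untreated replicate 3 was the highest of its group in both, and 4 of the 21 synthetases were at least 1.5-fold above the other untreated libraries there. Without it, 17 of 21 were called lower and none higher, and the change of AARS was -0.93 ± 0.058. Of 48 translation initiation and elongation factors 4 rose and 29 fell (median -0.30). The members that rose most were EEF1A2, the elongation factor form of muscle and neurons, from 0.6, 0.38 and 1.08 to 16.26, 16.5 and 14.59 FPKM (3.33 ± 0.16), and EIF4E3, a cap-binding relative of eIF4E, which entered the test through the treated libraries (2.55 ± 0.12). EIF4EBP1, an inhibitor of cap-dependent initiation, fell by 1.14 and EIF2S2 by 0.97. With quantile normalization 2 biogenesis genes and 1 synthetase were called higher, and 5 mitochondrial ribosomal genes.

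**Figure D3:**
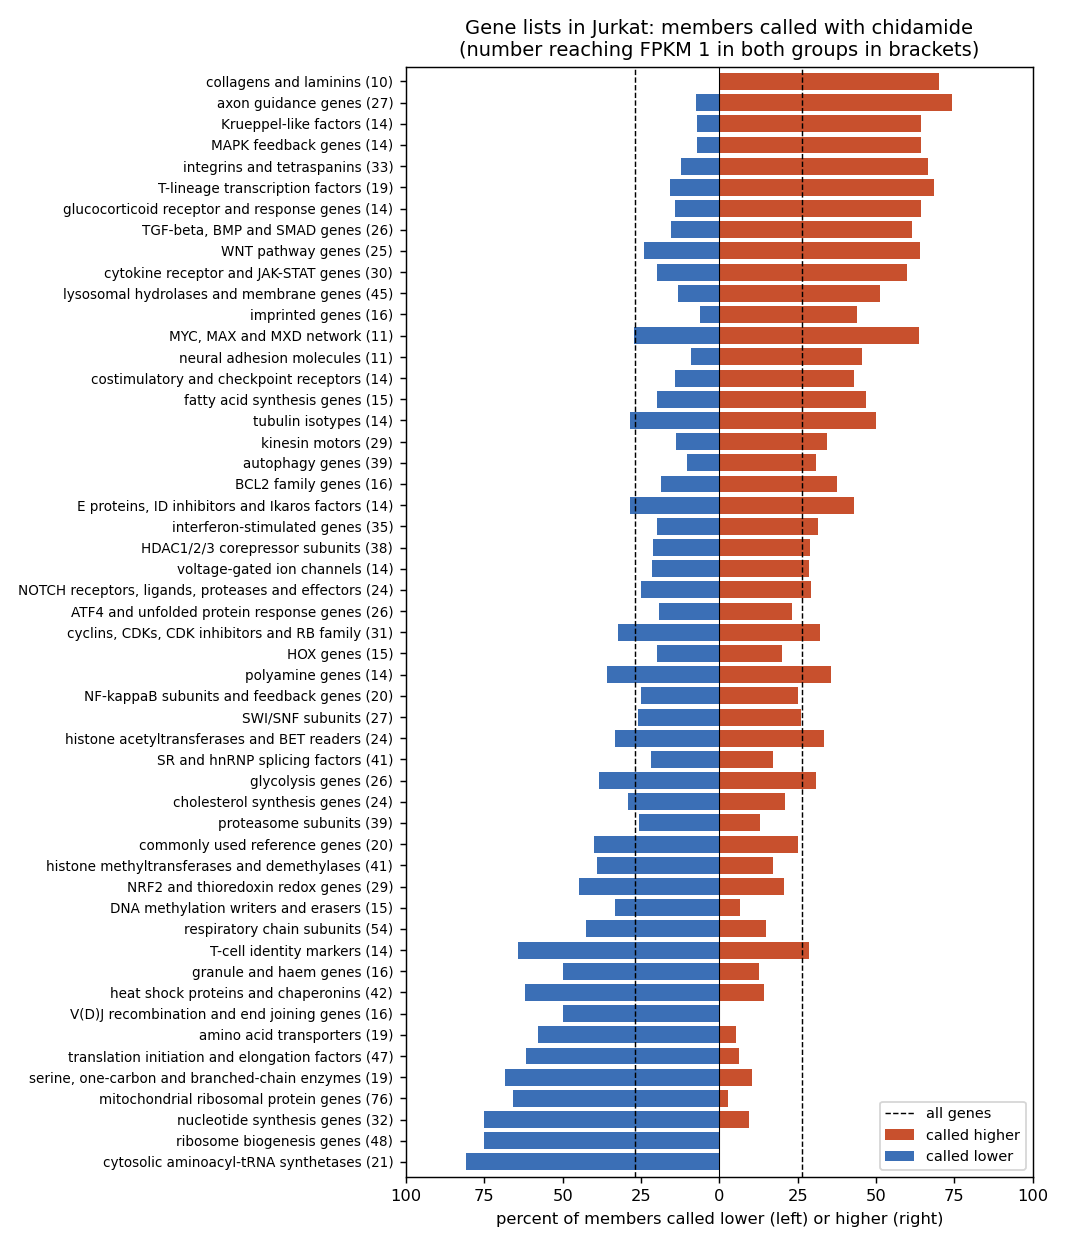
For each gene list with at least 10 members that reached 1 FPKM in both groups, bars give the percent of those members called lower (left) and called higher (right), ordered by the difference. Dashed lines mark the same shares over all 11840 such genes, 26.8% lower and 26.4% higher, and the lists of protein and nucleotide synthesis stand at the bottom.

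Nucleotide, one-carbon and amino acid transport genes were also called lower more often than higher. The shares over all genes tested were 29.7% higher and 25.7% lower. Of 33 nucleotide synthesis genes 4 rose and 24 fell (median -0.62). ADA, adenosine deaminase, went from 896.53, 917.08 and 837.84 to 382.02, 397.2 and 395.81 FPKM (-1.17 ± 0.054). DCTD, which supplies thymidylate synthesis, fell by 1.47, the purine synthesis gene PFAS by 1.43 and ATIC, of the last steps of purine synthesis, by 1.14. Among 19 enzymes of serine, one-carbon and branched-chain metabolism 2 rose and 13 fell (median -0.66). BCAT1, which transfers the amino group of branched-chain amino acids, went from 43.54, 39.61 and 58.49 to 11.2, 11.98 and 14.36 FPKM (-1.82 ± 0.15). MTHFD1L, a mitochondrial folate enzyme, fell from between 42.6 and 57.96 to between 12.91 and 14.19 FPKM (-1.76 ± 0.12). Of 20 amino acid transporters 1 rose, SLC6A8 (a creatine transporter), and 12 fell (median -0.71). SLC38A5, a glutamine transporter, went from between 27.85 and 43.28 to between 10.03 and 11.79 FPKM (-1.66 ± 0.16). Of these, 5 serine and one-carbon enzymes and 7 transporters were at least 1.5-fold above the other untreated libraries in untreated replicate 3. Without that library 2 enzymes rose and 13 fell, and 2 transporters rose and 12 fell. SRM, which makes spermidine, fell by 1.25, while SAT1, SAT2 and OAZ2, which break down polyamines or restrain their synthesis, rose by 1.22, 1.18 and 1.11, and the list of 14 polyamine genes was balanced at 5 higher and 5 lower.

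Energy and lipid metabolism were mixed. The shares over all genes tested were 29.7% higher and 25.7% lower. Of 54 nuclear-encoded respiratory chain subunits 8 rose and 23 fell (median -0.16), but with quantile normalization 16 rose and 16 fell. NDUFC1 of complex I went from between 87.1 and 110.15 to between 39.82 and 41.21 FPKM (-1.24 ± 0.089), and NDUFS3 and NDUFB10 fell by 0.75 and 0.68. Among 26 glycolysis genes 8 rose and 10 fell. The glucose transporter SLC2A3 rose from between 2.78 and 3.17 to between 15 and 17.08 FPKM (2.10 ± 0.098) and the aldolase ALDOC from between 11.97 and 14.8 to between 51.01 and 56.39 FPKM (1.91 ± 0.093), while GPI, glucose-6-phosphate isomerase, fell by 1.13. FASN, fatty acid synthase, went from 120.18, 115.29 and 66.67 to 42.39, 35.39 and 41.93 FPKM (-1.27 ± 0.21), with untreated replicate 3 the lowest of its group (-1.54 ± 0.085 without it). ACACA, which supplies its substrate, fell by 0.99, yet 7 of the 15 fatty acid genes rose and 3 fell. Of 24 cholesterol synthesis genes 5 rose and 7 fell (4 and 12 without untreated replicate 3, and 4 lower with equal totals). FDPS, farnesyl diphosphate synthase, fell by 0.84 and INSIG1, a brake on sterol synthesis, rose by 0.69. Of 30 genes of NRF2 and thioredoxin redox control 6 rose and 14 fell, with GPX1 and PRDX2, which reduce peroxides, falling by 1.01 and 0.87.

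Heat shock proteins and chaperonins fell more often than they rose, 26 against 6 of 42 (median -0.56). That is 61.9% lower and 14.3% higher, against 25.7% and 29.7% over all genes tested. HSPD1, the mitochondrial chaperonin, went from 950.87, 917.52 and 623.25 to 264.15, 273.78 and 267.66 FPKM (-1.60 ± 0.15), and its partner HSPE1 from 728.27, 770.44 and 391.07 to 214.83, 212.27 and 227.57 FPKM (-1.46 ± 0.23). The cytosolic HSPH1 fell by 1.37, while BAG3, a co-chaperone of selective autophagy, rose from between 14.59 and 16 to between 33.44 and 35.09 FPKM (1.13 ± 0.074). In untreated replicate 3, 14 of the 42 were at least 1.5-fold below both other untreated libraries, and without it 6 rose and 31 fell, with changes of -1.79 ± 0.037 for HSPD1 and -1.78 ± 0.046 for HSPE1. The transcription factor ATF4 is known to activate genes under amino acid shortage or endoplasmic reticulum stress. A list of ATF4 and unfolded protein response genes held 26 tested genes. In untreated replicate 3, 10 of these were at least 1.5-fold above both other untreated libraries and 3 at least 1.5-fold below. ASNS, asparagine synthetase, lay at 13.03 and 12.13 FPKM in untreated replicates 1 and 2, at 90.25 in replicate 3 and at 29.33, 31.64 and 30.24 FPKM treated, and was not called (0.29 ± 0.66, limma adjusted p = 0.727). Without untreated replicate 3 it was called higher, by 1.21 ± 0.073 (limma adjusted p = 1.29e-05). CHAC1, which degrades glutathione, lay at 3.36 and 3.68 against 44.81 FPKM, with 0.93 to 1.63 FPKM treated. Its change of -2.14 ± 0.81 was not called, and without untreated replicate 3 it was called lower, at -1.03 ± 0.16 (limma adjusted p = 0.0524 and 0.00109). ASNS, CHAC1, TRIB3 and DDIT3 were chosen after their values were seen. Of the 26 ATF4 and unfolded protein response genes 6 rose and 5 fell (10 and 10 without untreated replicate 3). PSAT1 of serine synthesis, at 109.89, 99.94 and 322.76 FPKM untreated and 51.07, 53.33 and 52.53 treated, fell by 1.53 ± 0.39 (adjusted p = 0.011), and by 0.99 ± 0.058 without untreated replicate 3. EDEM1, of endoplasmic reticulum degradation, fell by 1.45 ± 0.29 and was likewise highest in that library, at 238.89 FPKM (a change of -1.06 ± 0.083 without it). What set this library apart was not tested.

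**Figure D4:**
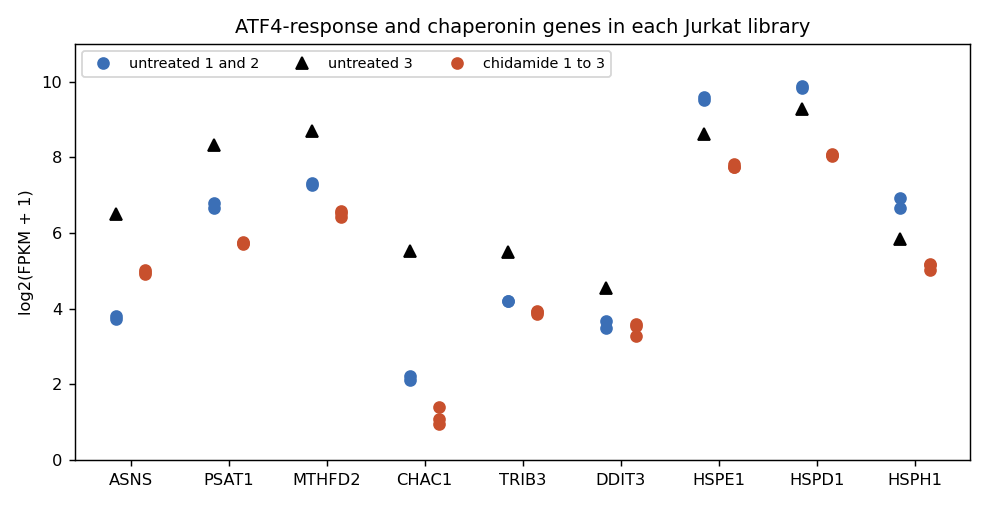
Levels of 6 ATF4-response genes and 3 chaperones are shown as log2(FPKM + 1) in each Jurkat library, with untreated replicates 1 and 2 as blue circles, untreated replicate 3 as black triangles and the 3 treated libraries as orange circles. Untreated replicate 3 lies above its group in ASNS, PSAT1, MTHFD2, CHAC1, TRIB3 and DDIT3 and below it in HSPE1, HSPD1 and HSPH1.

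Lysosomal genes were called higher more often than lower. Of 45 lysosomal hydrolase and membrane genes 23 rose, 6 fell and 16 were not called (median 0.31). That is 51.1% higher and 13.3% lower, against 29.7% and 25.7% over all genes tested. PSAP, the precursor of the saposins that help degrade sphingolipids, went from 353.44, 347.23 and 366.61 to 825.56, 826.22 and 855.93 FPKM (1.23 ± 0.049). SMPD1, acid sphingomyelinase, rose from between 0.45 and 1.58 to between 5.81 and 7.43 FPKM (2.03 ± 0.22), and the protease CTSH and the sulfatase SGSH rose by 1.69 and 1.27. Of 39 autophagy genes 12 rose and 4 fell (median 0.15), the rises close in share to those of all genes. OPTN, a cargo receptor, went from 2.09, 2.02 and 5.52 to 22.46, 18.87 and 20.79 FPKM (2.46 ± 0.28), WIPI1 rose by 2.40 and GABARAPL1 from between 19.52 and 22.75 to between 57.35 and 61.02 FPKM (1.43 ± 0.077). Of 39 proteasome subunits 5 rose and 10 fell, a count that turned to 12 and 7 under quantile normalization and to 5 and 25 without untreated replicate 3. PSMB10 of the immunoproteasome and PSMB5 fell by 1.17 and 0.92. Of 41 SR and hnRNP splicing factors 7 rose and 9 fell (7 and 22 without untreated replicate 3).

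Cell cycle and survival genes did not move as 1 group. Of 32 cyclins, CDKs, CDK inhibitors and RB family genes 11 rose and 10 fell. That is 34.4% and 31.2%, against 29.7% and 25.7% over all genes tested. Beside CDKN1A, the retinoblastoma gene RB1, which restrains entry into S phase, went from 53.52, 47.98 and 53.2 to 140.13, 141.63 and 133.45 FPKM (1.41 ± 0.066), and the CDK inhibitor CDKN2D from 19.19, 23.11 and 28.18 to 65.63, 60.08 and 64.15 FPKM (1.41 ± 0.13). CCND1, cyclin D1, was at or below 0.04 FPKM untreated and reached 2.64, 3.9 and 2.03 FPKM. Brakes and drivers of the cycle thus stood among the rises. MYC, the growth regulator, fell from 281.23, 277.59 and 220.3 to 161.27, 164.74 and 166.08 FPKM (-0.65 ± 0.094, adjusted p = 7.13e-04). Its relatives MYCN and MYCL, both low, rose to between 5.84 and 6.65 and between 6.62 and 7.41 FPKM (1.67 ± 0.14 and 1.21 ± 0.12), and MXI1, a MAX partner that opposes MYC, rose by 0.67 ± 0.091. NOTCH1, whose activating mutations are common in this leukaemia, fell from 22.49, 22.17 and 17.63 to 14.54, 14.14 and 13.37 FPKM (-0.53 ± 0.11, adjusted p = 0.00397). ADAM10, the protease of the first ligand-induced cut of NOTCH receptors, rose from 106.47, 99.96 and 102.14 to 551.54, 571.68 and 541.81 FPKM (2.42 ± 0.053, adjusted p = 1.82e-07). HEY1 and LFNG rose by 2.20 and 1.72 from under 1 FPKM, and the 30 NOTCH pathway genes tested counted 12 higher and 7 lower (7 and 6 of the 24 that reached 1 FPKM in both groups). Of 16 BCL2 family genes 6 rose and 3 fell (6 and 6 without untreated replicate 3). The rises included the death-promoting BMF, from between 3.48 and 5.29 to between 12.33 and 18.37 FPKM (1.65 ± 0.17), BCL2L11 (BIM, 0.77 ± 0.12) and BAK1 (0.74 ± 0.067). BCL2L2, a survival gene, was also called higher (0.77 ± 0.27, limma adjusted p = 0.039), but not without a filter, under quantile normalization or without single libraries (untreated replicate 1 or 2, treated replicate 2 or 3), with adjusted p between 0.0017 and 0.206 over the alternatives.

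Genes of T-cell identity fell more often than they rose, 9 against 4 of 14 (median -0.63). That is 64.3% lower and 28.6% higher, against 25.7% and 29.7% over all genes tested. Their summed level went from between 2505 and 2578 to between 1724 and 1793 FPKM. The defining marker CD2 lay at 44.21, 40.98 and 53.91 FPKM untreated and higher, at 62.64, 62.06 and 61.33 FPKM, treated. CD5 overlapped between the groups, at 34.07 to 37.13 FPKM untreated and 32.29 to 36.52 FPKM treated. CD247, the zeta chain of the T-cell receptor complex, went from 102.5, 102.77 and 98.97 to 39.43, 37.24 and 42.12 FPKM (-1.34 ± 0.066), CD3E from 362.96, 375.99 and 410.08 to 179.02, 173.66 and 182.76 FPKM (-1.10 ± 0.061), and CD7 from 91.28, 92.2 and 72.4 to 33.03, 33.09 and 35.62 FPKM (-1.30 ± 0.1). PTCRA, the alpha chain of the precursor T-cell receptor, went from 4.75, 5.57 and 7.2 to 0.07, 0.07 and 0 FPKM. In CD247, CD3E, CD7 and PTCRA the treated libraries all lay below the untreated ones. Of 16 genes of V(D)J recombination and end joining none rose and 8 fell (1 rose and 9 fell without untreated replicate 3). RAG1, the recombinase, went from 38.05, 37.54 and 36.47 to 4.96, 4.87 and 4.54 FPKM (-2.73 ± 0.08), and its partner RAG2 from between 21.43 and 28.24 to between 12.23 and 14.24 FPKM (-0.82 ± 0.12).

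Of the factors that direct T-cell development, 18 of 24 tested rose and 3 fell (median 1.06). Of these, 5 had been under 1 FPKM in all untreated libraries, and among the 19 others 13 rose and 3 fell. The shares over all genes tested were 29.7% higher and 25.7% lower, and 26.4% and 26.8% over those that reached 1 FPKM in both groups. GATA3, required for T-lineage commitment and helper T cells, rose from 33.12, 29.82 and 37.61 to 131.57, 152.11 and 159.77 FPKM (2.11 ± 0.1). EOMES, a factor of cytotoxic T cells, rose from 2.09, 1.05 and 1.26 to 16.89, 16.67 and 14.37 FPKM (2.80 ± 0.16), and ZBTB7B, a factor of CD4 T cells, from 0.51, 0.84 and 0.78 to 10.51, 9.4 and 12.2 FPKM (2.77 ± 0.14). TOX2 rose to between 10.01 and 11.23 FPKM (3.07 ± 0.16). ZBTB7B and TOX2 entered the test through the treated libraries, so their changes are descriptions. Factors of both cytotoxic and helper cells were among the genes that rose. The ID proteins, which keep E proteins from DNA, rose strongly: ID1 from 9.31, 10.13 and 6.55 to 71.78, 65.49 and 80.05 FPKM (2.94 ± 0.15), ID2 from 1.85, 1.46 and 0.99 to 39.74, 32.93 and 39.58 FPKM (3.99 ± 0.15), and ID3 from 47.23, 46.42 and 41.04 to 326.84, 312.83 and 352.26 FPKM (2.85 ± 0.076). IKZF2, the Ikaros factor Helios, rose by 1.94 ± 0.12. Of the 15 E protein, ID and Ikaros genes 7 rose and 4 fell.

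**Figure D5:**
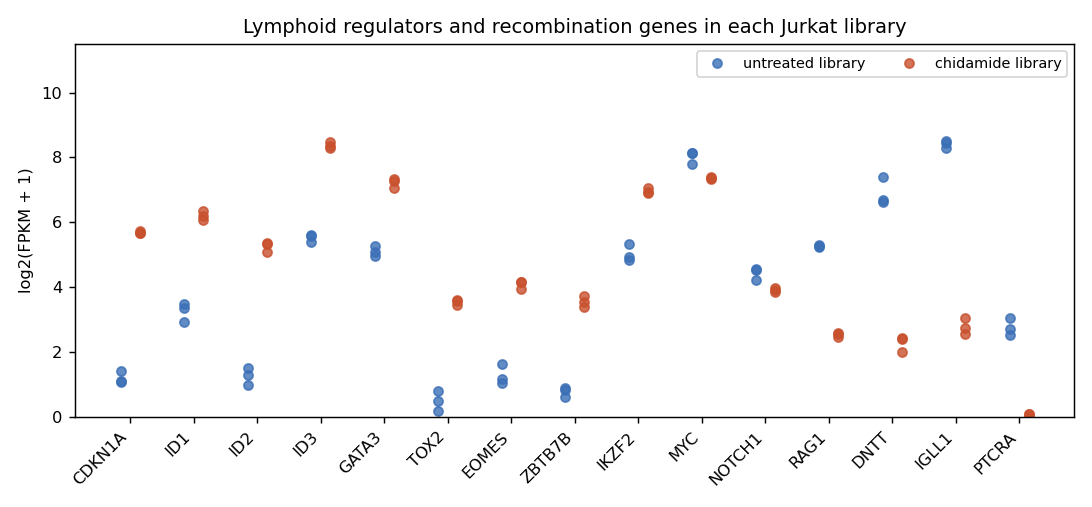
Levels of CDKN1A, ID1, ID2, ID3, GATA3, TOX2, EOMES, ZBTB7B, IKZF2, MYC, NOTCH1, RAG1, DNTT, IGLL1 and PTCRA are shown as log2(FPKM + 1) in each of the 3 untreated (blue) and 3 treated (orange) Jurkat libraries. The treated points lie above the untreated ones from CDKN1A to IKZF2 and below them from MYC to PTCRA, with MYC and NOTCH1 the closest.

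Receptors and signalling genes of lymphocytes rose more often than they fell. The shares over all genes tested were 29.7% higher and 25.7% lower, and 26.4% and 26.8% over those that reached 1 FPKM in both groups. Of 34 cytokine receptor and JAK-STAT genes 22 rose and 6 fell (median 0.73), and among the 30 that reached 1 FPKM in both groups 18 rose and 6 fell. STAT4, which acts downstream of interleukin 12, rose from 0.72, 0.83 and 1.54 to 14.86, 14.08 and 11.71 FPKM (2.86 ± 0.17). IL2RB, a chain of the interleukin 2 and 15 receptors, was at 0.2, 0.49 and 0.28 FPKM and reached 5.87, 5.96 and 6.38 FPKM, and IL10RA reached 3.77 to 6.29 FPKM from at most 0.17. Both crossed from below 1 FPKM to above it. Of 37 chemokines and their receptors listed 13 were tested, of which 9 rose and none fell. Without those that entered through the treated libraries 5 of 9 rose. Under quantile normalization 8 of the 13 rose and 4 fell. CCR7, the lymph node homing receptor, rose from 0.67, 1.38 and 0.3 to 15.91, 14.61 and 15.65 FPKM (3.24 ± 0.2), S1PR1, which guides exit from lymphoid organs, from 3.94, 4.65 and 7.96 to 40.82, 38.92 and 41.49 FPKM (2.72 ± 0.2), and CXCR4 from between 139.73 and 151.76 to between 306.53 and 315.11 FPKM (1.11 ± 0.055). KLF2, a factor known to activate S1PR1, rose from 7, 6.11 and 6.31 to 28.33, 30.59 and 32.62 FPKM (2.08 ± 0.093), and 9 of 14 Krueppel-like factors rose while 1 fell. Of 16 costimulatory and checkpoint receptors 7 rose and 3 fell (7 and 5 under quantile normalization, and 8 and 3 without untreated replicate 3). The activation marker CD69 rose by 2.00 ± 0.21 (2.26 ± 0.11 without that library). CD38 varied among untreated libraries, at 1.19, 2.4 and 6.58 FPKM, and lay at 15.96, 11.38 and 13.69 FPKM treated. Its change was 1.92 ± 0.4, and 2.42 ± 0.21 without untreated replicate 3.

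Genes that act on MAPK, TGF-beta and WNT signals also rose more often than they fell. The shares over all genes tested were 29.7% higher and 25.7% lower, and 26.4% and 26.8% over those that reached 1 FPKM in both groups. Of 18 MAPK feedback genes 12 rose and 2 fell, and among the 14 that reached 1 FPKM in both groups 9 rose and 1 fell. DUSP10, a phosphatase of JNK and p38, rose from 0.87, 0.6 and 1.03 to 10.38, 12.89 and 10.27 FPKM (2.73 ± 0.14), whereas DUSP2 fell from 35.31, 40.55 and 26.82 to 7.97, 7.55 and 9.5 FPKM (-1.90 ± 0.15). Phosphatases of the same family thus moved in opposite directions. Of 29 TGF-beta, BMP and SMAD genes 19 rose and 4 fell (median 0.55), and among the 26 that reached 1 FPKM in both groups 16 rose and 4 fell. The receptor TGFBR1 rose from 4.94, 3.3 and 7.08 to 23.01, 24.67 and 21.74 FPKM (2.03 ± 0.21). Of the inhibitory SMAD genes, SMAD7 rose to between 4.94 and 5.76 FPKM (2.23 ± 0.22) and SMAD6 fell from between 19.88 and 23.13 to between 5.07 and 7.25 FPKM (-1.72 ± 0.14). Of 30 WNT pathway genes 21 rose and 6 fell (median 0.42), and among the 25 that reached 1 FPKM in both groups 16 rose and 6 fell. AXIN2, a feedback inhibitor, rose from 2.67, 3.35 and 3.15 to 15.49, 16.62 and 16.25 FPKM (2.08 ± 0.1), RNF43, which removes WNT receptors, rose to between 7.03 and 8.98 FPKM (2.71 ± 0.12), and the corepressor TLE4 rose by 1.88 ± 0.11. In contrast, the 20 NF-kappaB genes counted 5 higher and 5 lower. NFKBIA, the inhibitor of NF-kappaB, fell by 0.87 ± 0.15 and BIRC3, one of its targets, rose by 0.79 ± 0.12. Of 36 interferon-stimulated genes 12 rose and 7 fell, the rises close in share to those of all genes. OASL and IFIT3 rose by 1.60 and 1.48 to between 2.54 and 3.89 FPKM, and USP18 fell by 1.18. The medians of the NF-kappaB and interferon lists, 0.031 and 0.23, turned negative under quantile normalization.

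Several lists of genes best known from other tissues were called higher more often than lower, counting only members that met the rule. Of those in the table, 35 of 62 axon guidance genes and 23 of 50 voltage-gated channels were tested. So were 37 of 45 integrins and tetraspanins and 12 of 39 collagens and laminins. Over all genes tested 29.7% were called higher and 25.7% lower. Among genes with a mean of 1 to 5 FPKM these shares were 44.0% and 8.93%. Of 35 axon guidance genes tested 28 rose and 2 fell (median 0.88), and among the 27 that reached 1 FPKM in both groups 20 rose and 2 fell. SEMA6B, a transmembrane semaphorin, went from 0.39, 0.35 and 0.82 to 10.12, 10.82 and 10.76 FPKM (2.94 ± 0.14), and SEMA4A from 2.78, 2.13 and 4.77 to 17.88, 18.65 and 18.24 FPKM (2.24 ± 0.2). L1CAM, a neural adhesion molecule, was at 0.13, 0.06 and 0.05 FPKM and reached 15.29, 13.93 and 12.46 FPKM (3.78 ± 0.12). These treated levels remained below those of the T-cell receptor complex genes CD3D, CD3E and CD247. Of 23 voltage-gated channel genes 13 rose and 3 fell, but 9 of the 23 had been under 1 FPKM in all untreated libraries, and among the 14 others 4 rose and 3 fell. Of 37 integrins and tetraspanins 26 rose and 4 fell (median 0.63), and among the 33 that reached 1 FPKM in both groups 22 rose and 4 fell. ITGB7, a chain of the gut homing integrin, rose from 2.34, 1.6 and 1.67 to 13.51, 14.62 and 15.54 FPKM (2.45 ± 0.13), and ITGA6, a laminin receptor chain, from 4.65, 6.87 and 9.57 to 34.16, 28.29 and 34.43 FPKM (2.09 ± 0.21). Of 12 collagens and laminins 9 rose and none fell (7 and none of the 10 that reached 1 FPKM in both groups), with COL6A1 and COL6A2 reaching between 4.44 and 7.07 FPKM. Among tubulins, the neuronal isotype TUBB3 went from 11.3, 10.7 and 6.59 to 79.14, 85.47 and 79.57 FPKM (adjusted p = 7.72e-06), TUBA4A from between 2.62 and 4.28 to between 24.95 and 28.98 FPKM (2.70 ± 0.15), and TUBA1A from between 107.12 and 112.77 to between 383 and 387.42 FPKM (1.80 ± 0.05). Of 15 tubulin genes tested 8 rose and 4 fell. The summed level of the 20 in the table overlapped between the groups, at 3470 to 3892 FPKM untreated and 3833 to 3949 FPKM treated. Tubulin genes share much sequence, so single members are uncertain.

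Marker lists of other blood cells moved as well. Few of their members were tested, and over all genes tested 29.7% were called higher and 25.7% lower. The 5 NK and cytotoxic markers tested all rose. Of these, 4 reached 1 FPKM in both groups, while NCAM1 entered through the treated libraries. The summed level of the 13 listed went from between 8.05 and 10.3 to between 69.2 and 73.7 FPKM. Beside NCAM1, the granule protease gene GZMA went from 2.11, 1.72 and 3.68 to 16.76, 23.13 and 19.52 FPKM (2.60 ± 0.21), and the pore protein gene PRF1 from between 2.02 and 2.72 to between 9.03 and 9.45 FPKM (1.66 ± 0.12). All 5 erythroid and megakaryocyte markers tested, of 18 listed, rose too, and 4 of them reached 1 FPKM in both groups. HBA2, an alpha globin, was at 0, 0.64 and 0.42 FPKM untreated and at 3.51, 37.76 and 36.74 FPKM treated, and its near-identical copy HBA1 lay at 3.38, 17.56 and 22.65 FPKM treated, so treated replicate 1 was far below the others. The 3 B-cell markers tested, of 10 in the table, all fell: IGLL1, CD79A, the alpha chain of the B-cell receptor complex, from between 24.61 and 29.62 to between 11.19 and 12.04 FPKM (-1.17 ± 0.092), and the kinase gene BLK (-1.05 ± 0.15). COL1A1 rose and PECAM1, an adhesion molecule of endothelium and of lymphocytes, fell by 0.91 ± 0.08, while DCN and LUM were listed at 0. Of 3 myeloid markers tested 2 rose and none fell. CD68, a lysosomal protein of macrophages, went from 1.41, 0.99 and 1.08 to 3.15, 3.48 and 3.14 FPKM (0.98 ± 0.12), and CEBPA, a factor of myeloid cells, rose by 0.49 ± 0.15, a call lost under quantile normalization and without untreated replicate 1 or treated replicate 1 or 2. CTSG, a granule protease of myeloid cells, was high in untreated Jurkat, at 206.9, 220.38 and 424.96 FPKM, and fell to 61.75, 63.63 and 64.23 FPKM (-2.07 ± 0.24, and -1.74 ± 0.049 without untreated replicate 3). The part of other cell types in these values was not tested.

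Whether the response of Jurkat differed from that of Molt-4 was tested as the difference of the 2 log2 changes, Molt-4 minus Jurkat, over all 12 libraries with limma. It was called for 3608 of the 12467 genes (28.9%), 2103 more positive in Molt-4 (16.9%) and 1505 more positive in Jurkat (12.1%). That split turned to 1881 and 2132 under quantile normalization and to 1678 and 2006 with equal totals. NOTCH1, which fell by 0.53 in Jurkat, went from 77.3 ± 3.72 to 17.2 ± 0.796 FPKM (mean ± SD, n = 3) in Molt-4, so its fall was larger there (difference -1.58 ± 0.12, limma adjusted p = 2.68e-06). The rises of SGK1 and NCAM1 were larger in Jurkat, with differences of -2.34 ± 0.14 and -2.01 ± 0.16. SGK1 was at 8.41 ± 0.7 FPKM (n = 3) in untreated Molt-4, above its untreated level in Jurkat. CDKN1A rose in both lines and reached 19.9 ± 2.2 FPKM (n = 3) in treated Molt-4, against 50.8 ± 1.08 FPKM (n = 3) in Jurkat. Its difference of -0.84 ± 0.16 was not called at a pseudocount of 0.1 (-0.46, limma adjusted p = 0.142, with a range over the alternatives of 1.69e-04 to 0.142). DNTT changed by -4.64 in Jurkat and -4.78 in Molt-4, and COL1A1 by 4.24 and 4.58, with no difference called (limma adjusted p = 0.721 and 0.546). The difference was -0.14 ± 0.25 for DNTT and 0.35 ± 0.39 for COL1A1, which does not show that the responses were alike.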

How the data were processed

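RNA of Jurkat and Molt-4 cultures was sequenced after a TruSeq library preparation, per the labels' protocols. The authors deposited FPKM per gene symbol, rounded to 2 decimals, for 12 libraries. Per the submitters' processing notes, STAR, HTSeq and DESeq2 were used with the build hg19, with no versions or order given, and how FPKM was made is not given in the sources used here. FPKM holds no read counts, so depth is unknown and no counting interval was given. Low values were checked for steps of whole reads. Relative to untreated replicate 1, the best step gave near-whole ratios for 33.3% to 45.7% of 27 to 49 genes per library, so reads were not recovered. All columns of values had a sample.

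The genes tested had 1 FPKM or more in 3 or more of the 6 Jurkat libraries. Their values were transformed as log2(FPKM + 1) and fitted with limma 3.58.1 in R 4.3.3 (lmFit and eBayes with an intensity trend, 1 mean per group, two-sided, Benjamini-Hochberg adjustment over 12467 genes). The test of the difference between lines used all 12 libraries on the same genes. On simulated data with 200 changed genes of 12467 for the Jurkat comparison, the fit called 40 of 40 genes changed by -2 (log2), 36 of 40 by -1, 37 of 40 by 1, 18 of 40 by -0.5 and 20 of 40 by 0.5, with 7 of 12267 unchanged genes also called. The changed genes were drawn without those of low level, and far fewer changed than the 55.4% called in the data. These rates therefore do not carry over to low genes or to the real share of changes.

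The members, the 62 gene lists and the tests were chosen with earlier results of these data known. Lists are described by the number of members tested and called and by their median change, without a test. Genes named were CDKN1A, NOTCH1, MYC and 4 deacetylases; the 12 largest rises and falls among called genes with a mean of at least 5 FPKM in the higher group and no overlap; the 5 largest rises and falls in FPKM; for each list its called members of largest change, at most 4, and for a list with no call its 2 members of highest level; and up to 8 genes switched on or off. The defining markers and the ATF4-response genes named as such stand outside that rule. Promoter sequences are from RefSeq (GRCh38.p14), matched by symbol, with any entry for 9339 genes tested, and no coordinate was set beside hg19.

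Alternatives were a pseudocount of 0.1, no filter, a filter of 5 FPKM, median-of-ratios scaling, quantile normalization, equal totals without 7SL RNA (3.43% to 4.65% of FPKM), a fit of all 12 libraries, a block on the replicate number, robust empirical Bayes, a 2-fold requirement, other limits for switched genes, and each library left out in turn. Some genes are not reported here.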

Additional observations from a re-analysis of the deposited data

Results flagged for a closer look

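For 11 of the 14 genes set side by side between the lines, the response in Molt-4 differed from that in Jurkat by the test of the difference itself (limma over all 12 libraries, adjusted p under 0.05). The differences of log2 changes, Molt-4 minus Jurkat, were -0.84 for CDKN1A, -1.58 for NOTCH1, 0.41 for MYC, -2.01 for NCAM1, -2.34 for SGK1, -0.85 for SHISA2 and -0.99 for ENC1. That of SHISA2 turned to 0.94 at a pseudocount of 0.1 and was not called there (limma adjusted p = 0.0662, with a range over the alternatives of 3.42e-05 to 0.0662), so its direction depends on that setting. MYC changed by -0.65 in Jurkat and by -0.24 in Molt-4, where it went from 231 ± 11 to 195 ± 1.33 FPKM (mean ± SD, n = 3). Among the large falls, the differences were 6.41 for SCARNA16, 1.16 for IGLL1, 3.59 for SNORD3B-2 and 2.44 for TNFRSF4. SCARNA16 was listed at 0 in all Molt-4 libraries, so its difference restates the Jurkat change. TNFRSF4 was low in untreated Molt-4, at 0.963 ± 0.244 FPKM (n = 3), and at 0.0267 ± 0.0231 FPKM treated. A gene that low cannot fall far on the log2(FPKM + 1) scale. The difference of TNFRSF4 therefore does not show a smaller fall in proportion in Molt-4. SNORD3B-2 varied widely there, at 2.41 ± 2.76 FPKM untreated and 3.75 ± 5.71 FPKM treated (n = 3), and its difference was no longer called under several alternatives, such as the replicate block (limma adjusted p = 0.0571, with a range over the alternatives of 0.0152 to 0.0774) and without untreated Jurkat replicate 3 (0.052). IGLL1 fell by 4.47 on the log2 scale in Molt-4. Apart from NOTCH1 and MYC, the genes were chosen by their large change in Jurkat, which favours a smaller change in Molt-4. The 11 of 14 is therefore a description, and it cannot be compared with the 28.9% called over all genes tested.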

How the results depend on the processing

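Of 269 named genes called, 254 kept their direction and call under each alternative that tested them, the 2-fold requirement aside, and 47 were not tested at 5 FPKM. Calls higher and lower numbered 3538 and 3057 with the replicate number as a block, a fit that changed no call among the named genes. Same-numbered libraries did not deviate together (r across genes -0.011, -0.013 and -0.042), so the numbers were not taken as pairs. The block gave 3135 differences between lines, and that of SNORD3B-2 was no longer called. Leaving out 1 library gave 3181 to 4215 genes higher, 2661 to 3560 lower and 3026 to 4196 differences. A 2-fold requirement left 1138, 344 and 823. Genes switched on numbered 56 with at most 0.05 FPKM in the silent group and 153 with at most 0.2. Without a filter 4687 were higher and 3065 lower. The median change of all genes lay between -0.034 and 0.099 over the scalings. Directions turned for 1 gene without a call, MUC1 (0.018 with equal totals, and -0.20 to 0.13 with single libraries left out), and for differences between lines of SHISA2 (0.94 at a pseudocount of 0.1), COL1A1 (-0.0089) and DNTT (0.03), the last 2 under quantile normalization. The cause was not tested. With 3 libraries a group and unknown depth, absent calls do not show absent change.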

Other observations

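Several smaller groups of genes belonged to no main pattern. For comparison, 29.7% of all genes tested were called higher and 25.7% lower. Glucocorticoid response genes rose more often than they fell, 10 against 2 of 15 tested. ERRFI1, a feedback inhibitor of EGF receptors, went from 1.06, 1.24 and 0.82 to 5.7, 5.2 and 4.67 FPKM (1.60 ± 0.13), and the antiproliferative gene BTG1 rose by 1.21 ± 0.23, with untreated replicate 3 the highest of its group at 6.08 FPKM. Imprinted genes, which are expressed from 1 parental copy, counted 10 higher and 1 lower of 19 tested, with 38 in the table. Among the 16 that reached 1 FPKM in both groups 7 were higher and 1 lower. GRB10, a growth inhibitor, went from 0.76, 0.61 and 0.8 to 7.04, 6.77 and 6.47 FPKM (2.17 ± 0.11). CDKN1C, the CDK inhibitor p57, rose from between 0.64 and 1.72 to between 2.78 and 3.36 FPKM (0.98 ± 0.19). Of 18 HOX and partner genes tested, with 42 in the table, 6 rose, 3 fell and 9 were not called. Among the 15 that reached 1 FPKM in both groups 3 rose and 3 fell. Under quantile normalization 4 were called higher and 5 lower, and the median change turned from 0.16 to -0.047. HOXD8 was at 0.17, 0.58 and 0.25 FPKM and reached 8.13, 7.89 and 8.96 FPKM (2.82 ± 0.14).

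Of 35 kinesin motor genes 16 rose and 4 fell, and among the 29 that reached 1 FPKM in both groups 10 rose and 4 fell. KIF5C, a neuronal transport motor, was at most 0.2 FPKM untreated and lay between 2.91 and 3.02 FPKM treated. Of 15 genes that write or erase DNA methylation 1 rose and 5 fell. DNMT3B rose from 12.39, 13.89 and 12.33 to 16.75, 17.56 and 18.96 FPKM (0.44 ± 0.09), while DNMT3A, the other de novo methyltransferase, fell from 54.26, 60.6 and 50 to 38.05, 40.07 and 44.74 FPKM (-0.41 ± 0.094). Of 24 histone acetyltransferases and BET readers 8 rose and 8 fell, with KAT2A (GCN5) falling by 0.92 and BRPF3 rising by 1.02. Of 16 granule and haem genes 2 rose and 8 fell, among them the haem enzymes UROD (-0.65 ± 0.092) and FECH (-0.58 ± 0.067).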
